A study of Sus scrofa with 55 samples.

Results

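The genes of the meiotic and mitotic cohesin complexes, with 3 genes of the meiotic chromosome axis, were followed in single pig oocytes. They were taken by their pig Ensembl symbols, and all 10 were found among the 25880 genes of the deposited count table: SMC1B, REC8 and STAG3 (meiosis-specific subunits), SMC1A, RAD21 and STAG2 (mitotic subunits), SMC3 (shared by both complexes), and SYCP3, HORMAD1 and HORMAD2 (axis). In the order above their Ensembl IDs are ENSSSCG00000032971, ENSSSCG00000002001, ENSSSCG00000007650, ENSSSCG00000012325, ENSSSCG00000006014, ENSSSCG00000012642, ENSSSCG00000010625, ENSSSCG00000000863, ENSSSCG00000006649 and ENSSSCG00000009995. The cytoplasmic RNA of 55 wild-type oocytes (Sus scrofa) had been read with Smart-seq2, which copies whole transcripts of a single cell, once the nuclear DNA had been spun off. Antral follicle stages 1 to 5 held 11, 12, 11, 11 and 10 oocytes, and the labels give no follicle size for a stage. Their donors were 4 pubertal gilts of Landrace and Yorkshire stock aged 208 to 210 days, each injected with PMSG (pregnant mare serum gonadotropin, 5 IU), a hormone preparation that makes follicles grow, 48 h ahead of ovary collection. The gilts, numbered 201, 205, 801 and 803, contributed 14, 9, 12 and 20 oocytes, and gilt 801 had none at stage 5. The study's title sets it in the question of how germinal vesicle oocytes are prepared for maturation, and no group here went without the hormone.

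Cohesin is a ring of proteins that holds sister chromatids together. Its core is a pair of SMC proteins closed by a kleisin, and a STAG protein binds the kleisin. In meiosis SMC1B, the kleisin REC8 and STAG3 take the places that SMC1A, RAD21 and STAG2 or STAG1 have in mitotic cells, while SMC3 serves in both rings. In mouse oocytes the cohesin that holds chromosomes through the long meiotic arrest is laid down before birth, and REC8 is cut by separase in the meiotic divisions. SYCP3 builds the lateral element of the synaptonemal complex, and HORMAD1 and HORMAD2 mark the axes of chromosomes that have not yet synapsed.

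Levels are given as counts per 1000000 counts of the oocyte's own library (CPM), which is a share of the library and not an amount of RNA. Totals ran from 151104 to 38282850 counts, with a median of 12139540, and 3 libraries had under 1000000. The limit set by 3 counts lay between 0.0784 and 19.9 CPM, with a median of 0.247 CPM. Mitochondrially encoded proteins took 2.104% to 91.8% of the counts, so a nuclear gene's CPM also moves with that share. Oocyte markers were present, with GDF9, ZP3, PADI6, BTG4 and ZP4 detected in all 55 libraries and 14 of the 20 listed markers found by symbol. In 14 libraries the granulosa and cumulus markers nevertheless held more counts than the oocyte markers. These granulosa-rich libraries were 12 of the 20 of gilt 803, 1 of gilt 201 and 1 of gilt 801, with 4, 1, 3, 4 and 2 of them at stages 1 to 5. Of 22 granulosa and cumulus markers 20 were found, and AMH was at 0 throughout.

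The mitotic subunits and SMC3 were detected in nearly every oocyte, whereas REC8 and HORMAD2 were missing from most. At least 1 count was seen for SMC1B in 50 of 55 oocytes, STAG3 in 35 and REC8 in 19. SMC1A was seen in 51, STAG2 in 51, RAD21 in 49 and SMC3 in 51. Of the axis genes, SYCP3 was seen in 46 oocytes, HORMAD1 in 33 and HORMAD2 in 7. As shares, REC8 was detected in 34.5% of oocytes (95% Wilson interval 23.4% to 47.7%), STAG3 in 63.6% (50.4% to 75.1%) and SMC1B in 90.9% (80.4% to 96.1%). RAD21, the kleisin that REC8 replaces in meiosis, was detected in 89.1% (78.2% to 94.9%). The intervals of REC8 and RAD21 did not overlap, and neither did those of STAG3 and STAG2, whose share was 92.7% (82.7% to 97.1%). The intervals of SMC1B and SMC1A, also at 92.7%, overlapped almost fully. These intervals treat the 55 oocytes as independent draws, which oocytes of the same gilt are not. The genes were also read in the same oocytes, so the overlap of intervals is a description and not a test.

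**Figure D1:**
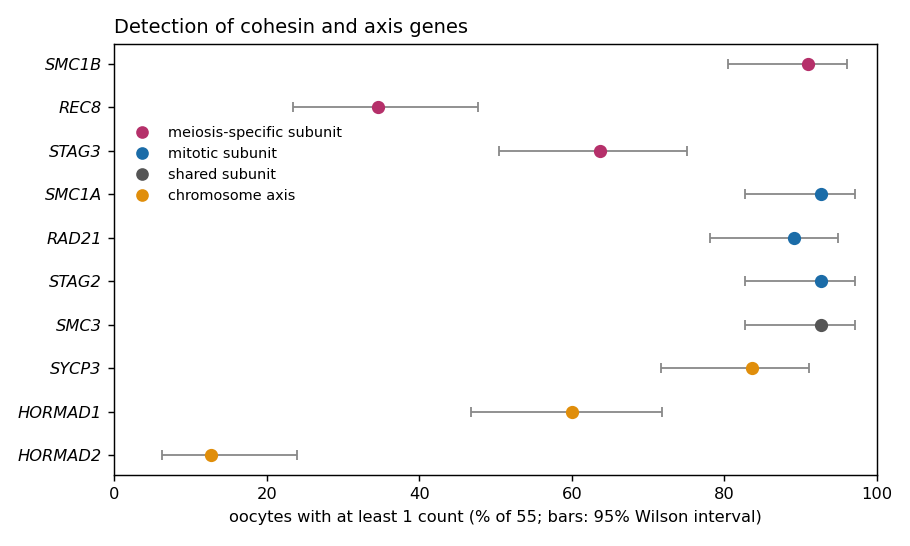
Share of the 55 oocytes (x axis, percent) with at least 1 count of each gene (y axis), with bars for the 95% Wilson interval and colours for the role of the gene. SMC1B sits beside the mitotic subunits at 90.9%, STAG3 lies at 63.6%, and REC8 and HORMAD2 stand lowest at 34.5% and 12.7%.

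A complete set of meiotic subunits was uncommon within 1 oocyte. All 4 genes of the meiotic ring (SMC1B, SMC3, REC8 and STAG3) were detected together in 15 oocytes, and all 4 of the mitotic ring (SMC1A, SMC3, RAD21 and STAG2) in 42. In 17 oocytes SMC1B and STAG3 were detected and REC8 was not. Each of the 19 oocytes with REC8 also had RAD21. An oocyte held between 3 and 10 of the 10 genes, with a median of 8, and 5 oocytes held all of them.

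SMC1B, the meiotic partner of SMC3, was the most abundant of the meiotic subunits in counts. Over 55 oocytes its lowest level was 0, its median 18.97 and its highest 373 CPM. Its median was 10.1, 19.4, 19.7, 20.9 and 7.18 CPM over stages 1 to 5. Its lowest oocyte was at 0, 0, 0, 2.35 and 0.102 CPM in these stages and its highest at 55.3, 359, 52.8, 134 and 373 CPM. The stages overlapped along most of this span, and stage 5 held the highest value although its median was the lowest. That maximum was a single oocyte of gilt 803, which carried 8101 of the 9110 SMC1B counts of stage 5. The other stage 5 oocytes had a median of 6.79 CPM and reached 35.5 CPM.

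REC8, the meiotic kleisin, gave 724 counts in all, of which that same stage 5 oocyte held 331. Along stages 1 to 5 it was detected in 7 of 11, 2 of 12, 3 of 11, 4 of 11 and 3 of 10 oocytes. Only 2 oocytes passed 10 CPM, 1 of gilt 803 at stage 5 with 15.2 CPM and 1 of gilt 801 at stage 4 with 10.8 CPM. Where REC8 was detected its median was 0.949 CPM, and in 4 of the 19 oocytes it rested on 1 to 3 counts.

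STAG3, the meiotic subunit that binds the kleisin, had a median of 0.368 and a highest value of 30.2 CPM. Its median was 1.32, 0.347, 0.185, 1.46 and 0.0824 CPM over stages 1 to 5. The highest oocyte reached 30.2, 29.6, 11.6, 23.5 and 24.9 CPM over stages 1 to 5, and the lowest was at 0 in every stage. High and undetected oocytes therefore occurred side by side in each stage.

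The 3 mitotic subunits had similar spans. SMC1A, the mitotic counterpart of SMC1B, had a median of 7.57 and a highest value of 351 CPM. RAD21 had a median of 8.39 and a highest value of 317 CPM. STAG2, the mitotic counterpart of STAG3, had a median of 7.18 and a highest value of 499 CPM. The maxima of SMC1A and RAD21 were the same granulosa-rich oocyte of gilt 803 at stage 4, with 5267 and 4748 counts. That of STAG2 came from a gilt 803 library at stage 2 with 554 counts of the gene. By stage, median RAD21 was 12.5, 6.93, 27.6, 37.5 and 4.44 CPM over stages 1 to 5. Median STAG2 was 16.2, 6.35, 2.45, 15.1 and 3.73 CPM over stages 1 to 5, and median SMC1A 8.74, 9.46, 8.25, 7.19 and 3.19 CPM. RAD21 and STAG2 thus did not share an order of stages, although each of these 3 genes had a lower median at stage 5 than at stage 4.

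SMC3, the subunit of both rings, had the highest median of the 10 genes in CPM, 29.8, with a highest value of 458 CPM. Its median was 38.2, 20.0, 46.7, 86.5 and 7.58 CPM over stages 1 to 5. The highest oocyte stood at 421, 458, 226, 301 and 72.3 CPM over stages 1 to 5. CPM is not scaled to transcript length, so genes can be ranked within an oocyte only on the other deposited table, which is length-scaled. There, over the 7 genes whose values could be used, SMC3 was the highest in 30 of 55 oocytes, SMC1B in 14, HORMAD1 in 6, SMC1A in 2, RAD21 in 2 and STAG3 in 1. SMC3 exceeded SMC1B in 37 oocytes and was below it in 17, so those neighbours in the order were not fully separated. Counts per unit of that table, relative to SMC3 in the same oocyte, ran from 0.398 to 2.97 for SMC1A and from 0.926 to 3.86 for RAD21. The scale of a gene there thus varied between oocytes, and the order is uncertain to that extent.

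Among the axis genes SYCP3 was the most widely found, with a median of 3.66 and a highest value of 77.7 CPM. Its median was 3.05, 2.57, 5.04, 4.42 and 1.35 CPM over stages 1 to 5. HORMAD1 had a median of 0.433 and a highest value of 64.1 CPM, and that highest value came from only 22 counts in a shallow gilt 803 library. The highest HORMAD1 value that did not come from a library under 1000000 counts was 58.6 CPM. HORMAD2 was detected in 2, 1, 1 and 3 oocytes of stages 1 to 4, between 1.19 and 11.4 CPM. It had 0 counts in all 10 oocytes of stage 5, which allows a detected share of up to 27.8%, at 3-count limits of 0.138 to 0.614 CPM. It was also at 0 in all 14 oocytes of gilt 201.

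**Figure D2:**
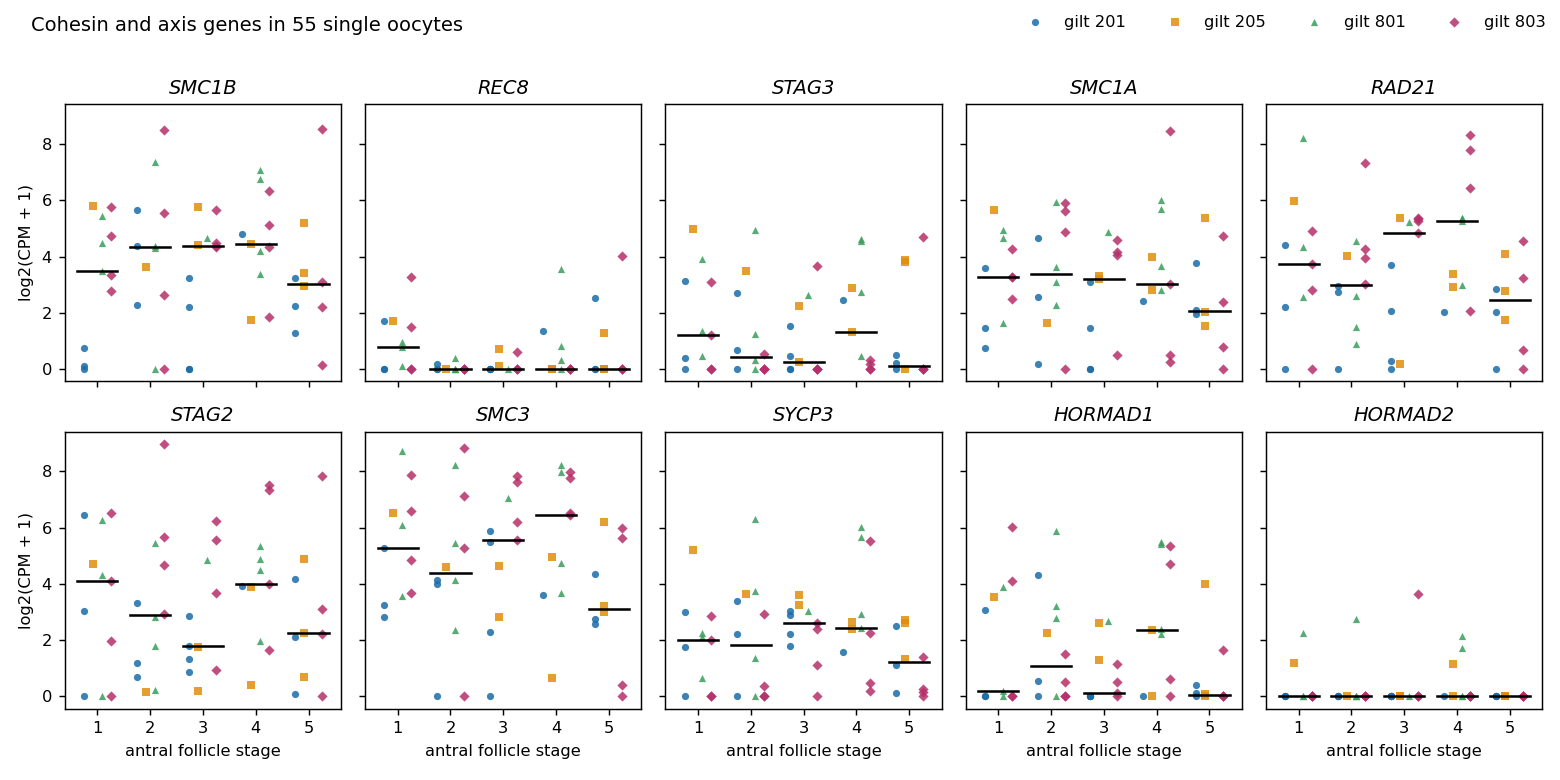
Level of each of the 10 genes in the 55 oocytes, as log2(CPM + 1) (y axis), by antral follicle stage (x axis), with colour and marker for the gilt and a black bar for the stage median. SMC1B, SMC1A, RAD21, STAG2 and SMC3 span several log2 units within each stage, most oocytes are at 0 for REC8 and HORMAD2, and the stages overlap for each gene.

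The stage medians in CPM also carry the mitochondrial share, whose median was 50.98%, 76.1%, 73.9%, 9.05% and 73.3% over stages 1 to 5. Counted against non-mitochondrial RNA alone, median SMC1B was 11.1, 77.2, 28.3, 63.6 and 30.0 CPM and median SMC3 112, 124, 161, 98.9 and 58.1 CPM. Median RAD21 was 33.0, 22.6, 44.6, 46.6 and 23.3 CPM on that scale. The stage 4 level of SMC3, the highest median in total CPM, was no longer the highest. The granulosa and cumulus marker sum moved between stages as well, with medians of 4253, 170, 271, 748 and 791 CPM, and its part in the stage medians was not tested. The mix of gilts also differed between stages. Over stages 1 to 5 gilt 201 gave 3, 3, 4, 1 and 3 oocytes and gilt 205 gave 1, 1, 2, 2 and 3. Gilt 801 gave 3, 4, 1 and 4 at stages 1 to 4 and none at stage 5, and gilt 803 gave 4 at each stage. Median SMC3 by gilt ran from 9.80 CPM in gilt 201 to 79.2 CPM in gilt 803. The part of the gilt mix in the stage medians was not tested.

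For tests, the oocytes that shared a gilt and a stage were added up into 19 sums of 1 to 4 oocytes and fitted with edgeR's quasi-likelihood model with stage and gilt. At a Benjamini-Hochberg adjusted p under 0.05, 0 of the 10 genes were called in stage 5 over stage 1, against a background of 0% of 15637 genes tested. The counts and backgrounds were likewise 0 of 10 and 0% for stage 2 over stage 1, 0 of 10 and 0% for stage 3 over stage 2, 0 of 10 and 0% for stage 4 over stage 3, and 0 of 10 and 0% for stage 5 over stage 4. For any difference among stages they were 0 of 10 and 0%, and for a trend over stages 0 of 10 and 0.0128%. All 10 genes passed the filter on low counts. At an unadjusted p under 0.05, 840 of all genes but none of the 10 passed in stage 5 over stage 1. Over the 7 stage comparisons the lowest unadjusted p of the 10 genes was 0.0783 in edgeR, for STAG2 in stage 2 over stage 1, with an adjusted p of 0.800. A share of 0 among the 10 genes equals the background and is no result about cohesin genes. The common biological coefficient of variation was 1.24. DESeq2 called 1 of the 10, HORMAD2, in stage 5 over stage 1 (adjusted p = 5.04e-06), where it called 2.33% of all genes, and in stage 5 over stage 4, where it called 1.38%. HORMAD2 had 0 counts in every stage 5 oocyte.

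The fitted changes of stage 5 over stage 1 show how wide the errors were. On the log2 scale they were 1.47 ± 1.12 for SMC1B, 2.23 ± 2.24 for REC8 and 0.73 ± 1.55 for STAG3 (± SE). For the mitotic subunits they were 0.38 ± 0.93 for SMC1A, -1.38 ± 1.08 for RAD21 and 0.15 ± 0.93 for STAG2, and for SMC3 -0.42 ± 0.70. For the axis they were -0.94 ± 1.31 for SYCP3 and -2.09 ± 1.87 for HORMAD1. HORMAD2, at 0 in every stage 5 oocyte, gets a fitted change of -5.29 ± 3.70 that depends on the prior count and is no bound. The median over all genes tested was -0.27, and the lowest adjusted p among the 10 genes was 0.960 in edgeR. The medians were 1.47 for the meiotic subunits, 0.15 for the mitotic and -2.09 for the axis genes, which describes these genes and is not a test.

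The signs of the meiotic subunits changed with some choices of libraries left out. Without the stage 5 oocyte of gilt 803 that was highest in SMC1B, the fitted change of stage 5 over stage 1 was -0.64 for SMC1B, -1.03 for REC8 and -2.28 for STAG3. That of STAG2 was -0.56 without it, and those of SMC1A, RAD21, SMC3 and the axis genes kept their sign. The oocyte had 21707228 counts, 33.2% of them mitochondrially encoded, with 2894 CPM of oocyte markers and 1016 CPM of granulosa and cumulus markers, and so was not among the granulosa-rich libraries. Among the 55 oocytes it had rank 1 for SMC1B and REC8, rank 2 for STAG2 with 229 CPM and rank 3 for STAG3 with 24.9 CPM, but rank 20 for SMC3, 35 for SYCP3 and 21 for HORMAD1. Using library totals without TMM factors (edgeR's scaling for library make-up) moved the median of all genes to -1.16, and SMC1A and STAG2 then stood at -0.58 and -0.94, above that median but with the opposite sign. Without gilt 803 as a whole, which also leaves that oocyte out, SMC1B stayed at 0.32 ± 1.22 and REC8 at 1.03 ± 2.53. STAG3 changed sign without gilt 803 (-0.66) and without the granulosa-rich libraries (-0.82), and SYCP3 without gilt 803 (0.05). Markers of other cells moved between these stages too: the median fitted change was -0.67 for 18 granulosa and cumulus markers, -3.23 for 14 theca and stroma markers and -5.53 for 15 blood, immune and endothelial markers, with 0 called in each list, and their part in the values of the 10 genes was not tested.

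**Figure D3:**
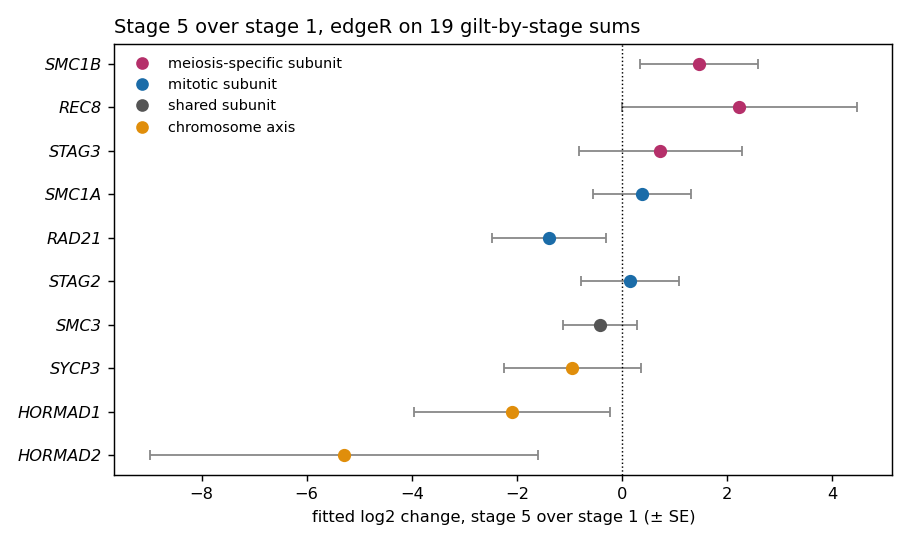
Fitted log2 change of stage 5 over stage 1 (x axis) for each gene (y axis), with bars for the standard error and colours for the role of the gene, from edgeR on 19 gilt-by-stage sums. The 3 meiotic subunits lie right of 0 and the 3 axis genes left of it, and no gene passed the test. Without 1 stage 5 oocyte of gilt 803 the meiotic subunits lie at -0.64, -1.03 and -2.28, and without gilt 803 as a whole at 0.32, 1.03 and -0.66.

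Along the 5 stages taken as a number, the slopes per stage were 0.23 ± 0.24 for SMC1B, 0.42 ± 0.43 for REC8 and 0.10 ± 0.30 for STAG3, against 0.12 ± 0.19 for SMC1A, -0.16 ± 0.24 for RAD21 and 0.08 ± 0.19 for STAG2 (log2 ± SE). SMC3 had a slope of -0.11 ± 0.15, SYCP3 of -0.15 ± 0.28 and HORMAD1 of -0.46 ± 0.39. The slope of all genes had a median of -0.06. Without the SMC1B-high oocyte the slopes were -0.14 for SMC1B, -0.13 for REC8, -0.39 for STAG3 and -0.06 for STAG2.

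The balance between a meiotic subunit and its mitotic counterpart is taken within a library, and was given as the log2 ratio of CPM with 1 CPM added to each. The counts are not scaled to transcript length, so the size of a ratio is not a molar ratio. For SMC1B over SMC1A the balance was 0.74 ± 0.24 (SD over 4 gilts), positive in 14 of 19 sums. For REC8 over RAD21 it was -3.37 ± 1.24, positive in 0 of 19. For STAG3 over STAG2 it was -1.75 ± 2.07, positive in 3 of 19, all of them of gilt 205. With 4 gilts the smallest two-sided p of an exact sign-flip permutation test is 0.125, so no test was made.

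The balance of SMC1B and SMC1A varied widely between single oocytes. SMC1B had more counts in 33 oocytes, SMC1A in 19, and 3 oocytes had equal counts. In gilt 201 the tally was reversed, with SMC1B higher in 4 and SMC1A in 7, and in the 14 granulosa-rich libraries each was higher in 7. SMC1B held a median of 62.6% of the counts of the pair. Over the 53 oocytes with either gene its share ran from 0% to 100%, above 90% in 9 and below 10% in 7. Within a gilt the SD of the balance over stages was 1.83 in gilt 201 and 1.00 in gilt 205. It was 0.68 in gilt 801 and 1.94 in gilt 803. At stage 5 the 3 sums of SMC1B over SMC1A were -0.42 (gilt 201), 0.28 (205) and 3.67 (803; 0.39 without the SMC1B-high oocyte), and at stage 1 the 4 sums were -2.23 (201), 0.17 (205), 0.88 (801) and 1.24 (803). Without the granulosa-rich libraries the balance was 1.14, and on the length-scaled table, where SMC1B exceeded SMC1A in 36 of 53 oocytes and was below it in 17, it was 1.42. The mean over gilts was thus positive on both measures. The size of 1.42 is uncertain. Counts per unit of the length-scaled table, relative to SMC3, ran from 0.398 to 2.97 between oocytes for SMC1A and from 0.610 to 1.21 for SMC1B.

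RAD21 exceeded REC8 wherever either was found. REC8 had more counts in 0 oocytes and RAD21 in 49, and the remaining 6 had neither. The mean balance was -3.60, -3.42, -4.11, -3.69 and -1.28 over stages 1 to 5. The 3 gilts of stage 5 were at -0.63 (201), -2.59 (205) and -0.62 (803), while the 4 of stage 1 were at -2.32 (201), -4.28 (205), -5.43 (801) and -2.36 (803). In CPM of the sums, stage 5 had 1.52 REC8 beside 2.88 RAD21 in gilt 201, 0.383 beside 7.32 in gilt 205 and 7.37 beside 11.9 in gilt 803. In each of the 3 gilts with both stages the balance was nearer 0 at stage 5 than at stage 1. However, stage 5 REC8 came from a single oocyte in each gilt, with 61 counts in gilt 201 and 19 in gilt 205. In gilt 205 REC8 itself was lower at stage 5 than at stage 1 (0.383 and 2.27 CPM), as was RAD21 (7.32 and 62.3 CPM). The gilt 803 value includes the REC8-richest oocyte. Without that oocyte gilt 803 had 0 REC8 counts at stage 5 and a balance of -1.58, set by its 1.98 CPM of RAD21 alone. The size of this balance depended on the added value, at -5.16 with 0.1 CPM and -1.93 with 5 CPM.

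The gilt means of STAG3 over STAG2 spanned a wider range than its stage means. Its mean was 0.64 ± 1.57 in gilt 205, -1.35 ± 0.84 in gilt 801, -1.89 ± 1.15 in gilt 201 and -4.38 ± 1.79 in gilt 803 (SD over 5, 4, 5 and 5 stages). The stage means lay between -2.347 and -0.999. STAG3 had more counts than STAG2 in 6 of the 9 oocytes of gilt 205, 2 of 12 of gilt 801, 2 of 14 of gilt 201 and 0 of 20 of gilt 803. The largest balance, 3.34 in gilt 205 at stage 2, came from 1 oocyte with 10.1 CPM of STAG3 and 0.103 CPM (2 counts) of STAG2. On the length-scaled table the mean balance of this pair was 0.14, but STAG2 had about 10.1 times the counts per unit there that SMC3 had, so its scale in that table is uncertain.

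**Figure D4:**
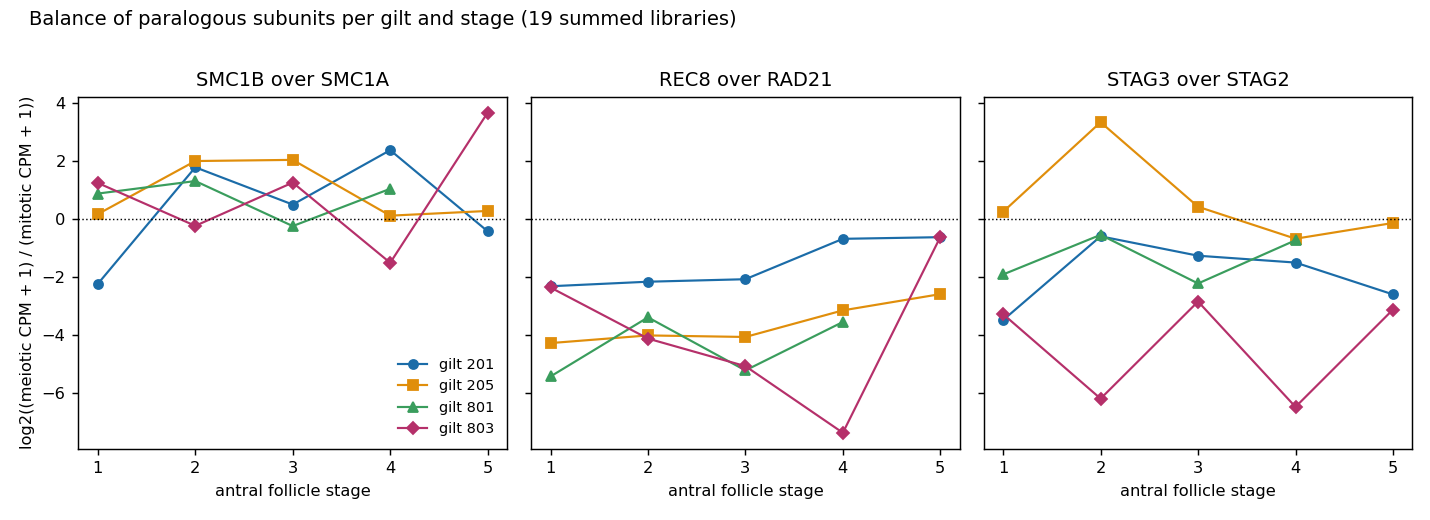
Balance of each meiotic subunit over its mitotic counterpart, as the log2 ratio of CPM with 1 CPM added to each (y axis), by antral follicle stage (x axis) for the 19 gilt-by-stage sums, with a line for each gilt. SMC1B over SMC1A scatters about 0.74, REC8 over RAD21 is below 0 in every sum, and STAG3 over STAG2 is above 0 in 3 sums of gilt 205.

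The gilts were compared in the same model. The background was higher here, with 2.17% of genes called (339 of 15637), and 0 of the 10 genes were called. STAG2 came nearest, with an unadjusted p of 0.0136 and an adjusted p of 0.214 in edgeR. Its TMM-scaled level was 6.29 ± 4.78 CPM in gilt 205, 13.1 ± 3.83 in gilt 801, 24.7 ± 19.2 in gilt 201 and 37.8 ± 20.0 in gilt 803 (SD over 5, 4, 5 and 5 stages). STAG3 had the opposite order in these extremes, with 10.4 ± 7.77 CPM in gilt 205 and 2.40 ± 3.07 CPM in gilt 803, without passing the test (adjusted p = 0.832 in edgeR). STAG2 was 1 of 10 called among gilts by DESeq2 (adjusted p = 0.0257), which called 7.61% of genes with an adjusted p, and 1 of 10 in edgeR without TMM factors (adjusted p = 0.0460), which called 8.49%. A count of 1 in 10 is near those backgrounds. The adjusted p of STAG2 lay between 0.0257 and 0.887 over 14 alternatives, the highest without gilt 205.

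Libraries with granulosa RNA differed in these genes within gilt 803 itself. Median SMC3 was 114 CPM in its 12 granulosa-rich oocytes and 47.8 CPM in its other 8, and median RAD21 was 33.3 and 15.3 CPM. Median SMC1B was 14.1 CPM in the 12 and 47.9 CPM in the 8, median SYCP3 0.207 and 2.35 CPM, and median STAG3 0 and 0.660 CPM. STAG2 had medians of 11.3 CPM in the 12 and 20.3 CPM in the 8. The median mitochondrial share also differed, at 6.68% and 36.8%, and over non-mitochondrial counts median SMC3 was 120 and 131 CPM while median SMC1B was 15.3 and 91.8 CPM. The granulosa-rich class was read from the same libraries, so these values are descriptions.

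Pooled over the 55 oocytes, RAD21, STAG2 and SMC3 had other values with the library measures than STAG3 and SYCP3, and the contrast varied between gilts. Values within a gilt were computed for gilts 201, 801 and 803 only. Spearman's correlation with the mitochondrial share was -0.66 for SMC3, -0.61 for RAD21 and -0.57 for STAG2, and 0.10 for STAG3 and 0.14 for SYCP3. Within gilt 201 it was -0.61 for SMC3, -0.68 for RAD21 and -0.48 for STAG2, against -0.02 for STAG3 and 0.03 for SYCP3. Within gilt 801 it was -0.91 for SMC3, -0.77 for RAD21, -0.94 for STAG2, -0.79 for STAG3 and -0.66 for SYCP3. Within gilt 803 it was -0.23 for SMC3, -0.24 for RAD21 and 0.11 for STAG2, against 0.30 for STAG3 and 0.34 for SYCP3. With the granulosa and cumulus marker sum it was 0.45, 0.45 and 0.41 for SMC3, RAD21 and STAG2, and -0.28 for both STAG3 and SYCP3. With the oocyte marker sum the pooled correlation was 0.53 for SYCP3, 0.48 for STAG3 and 0.33 for SMC1B, and between -0.12 and -0.07 for STAG2, RAD21 and SMC3. Within gilt 201 STAG3 had -0.14 and SYCP3 0.05 with oocyte markers. All of these values share the libraries and their depth, and marker and gene are shares of the same total. Their part in the stage and gilt values was not tested.

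**Figure D5:**
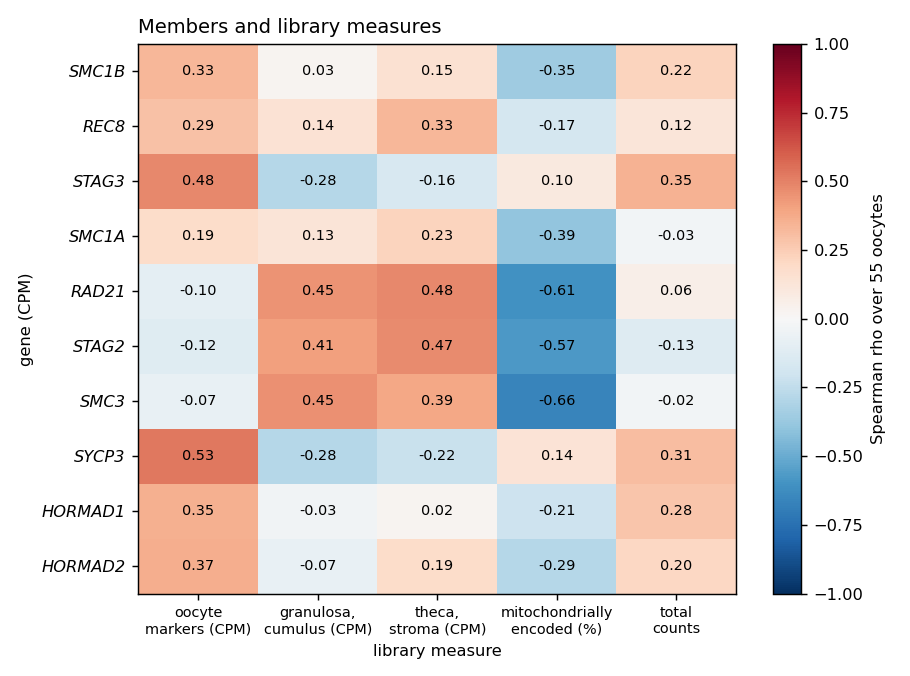
Spearman's correlation over 55 oocytes between the CPM of each gene (rows) and 5 library measures (columns: summed marker CPM of 3 cell classes, percent of mitochondrially encoded counts, total counts), coloured from -1 (blue) to 1 (red). SMC3, RAD21 and STAG2 have the most negative values with the mitochondrial share (-0.66, -0.61 and -0.57), and SYCP3 and STAG3 the highest with oocyte markers (0.53 and 0.48).

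Among themselves, STAG2 and SMC3 were the closest in CPM over the oocytes, but not in the TMM-scaled sums. The part of the mitochondrial share in the oocyte values was not tested. Over the 55 oocytes Spearman's correlation was 0.66 for STAG2 with SMC3, 0.64 for RAD21 with SMC3, 0.62 for SMC1A with STAG2 and 0.51 for SMC1B with SMC1A, but 0.44 for the mitotic pair SMC1A and RAD21. STAG3 and SYCP3 had a correlation of 0.50, SYCP3 and HORMAD1 of 0.49, and STAG2 and SYCP3 of 0.02. Summed by gilt and stage and scaled by TMM, Pearson's r over 19 sums was -0.10 for STAG2 with SMC3 and 0.35 for RAD21 with SMC3. It was 0.50 for STAG3 with SYCP3, the highest pair in the sums, -0.45 for STAG3 with STAG2 and -0.64 for STAG2 with SYCP3.

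Genes most like each member over the 19 sums were ranked by Pearson's r of log2 TMM-scaled CPM, among up to 5192 genes with a symbol and a mean of at least 10 CPM. SMC1B was most like VRK1, a chromatin-binding kinase, at 0.85, then PIK3R3 at 0.84 and TBC1D32 at 0.83. STAG3 was most like ADAMTS12 at 0.91, PLLP at 0.87 and GLP2R at 0.86, and SYCP3 like HCRT at 0.92, EPCAM at 0.92 and F2 at 0.91. STAG2 was most like GOLGA4 at 0.94, SLC25A24 at 0.87 and TRIM24 at 0.87, and SMC3 like GORASP2 at 0.81, EIF4H at 0.78 and RBBP7 at 0.78. RAD21 was most like SLC3A2, DDX54 and OBSL1, each at 0.72, and HORMAD1 was most like LHFPL1 at 0.80, ARFGAP2 at 0.77 and METTL18 at 0.77. REC8 and HORMAD2 had a mean under 1 CPM and were not ranked. Each r above was picked as among the highest of up to 5192 over only 19 sums. Its size owes something to that choice, and no r was tested against it.

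The genes that load, protect and cut cohesin were also without a call in stage 5 over stage 1. Of 9 tested genes for loading, acetylation and release, 0 were called, 7 had a positive fitted change and the median was 0.98, against -0.27 for all genes. Without the SMC1B-high oocyte 3 of the 9 were positive and the median was -0.43, against -0.46 for all genes. The 4 most abundant were NIPBL, which loads cohesin (30.6 CPM, change 1.26 ± 1.15), CTCF, which stops it on DNA (28.9 CPM, 1.18 ± 0.90), WAPL, which releases it (28.8 CPM, 0.36 ± 0.80), and PDS5A, a regulator of release (24.4 CPM, 0.09 ± 0.92). Without that oocyte NIPBL stayed positive (1.53 ± 1.26), while CTCF (-0.43 ± 0.91), WAPL (-0.53 ± 0.88) and PDS5A (-0.79 ± 1.00) had the other sign. The gilts differed for NIPBL as well. From stage 1 to stage 5 it went from 25.9 to 1.10 TMM-scaled CPM in gilt 201. It went from 15.3 to 16.4 in gilt 205 and from 13.2 to 180 in gilt 803. At stage 5 CTCF was at 8.06, 21.0 and 139 TMM-scaled CPM in gilts 201, 205 and 803. PDS5B, named after its values were seen, was the only one with an unadjusted p under 0.05, at 2.33 ± 1.08 and p = 0.0400 (adjusted p = 0.904 in edgeR), and it was at 0.57 ± 1.23 without that oocyte. STAG1, the other mitotic STAG gene, had a mean of 9.79 CPM and a change of 0.51 ± 1.26.

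Of 12 tested genes for protection and cleavage, 0 were called, 8 were positive and the median was 0.61. Over all 15637 genes tested 0% were called and the median was -0.27, which is the background of the lists below too. Without the SMC1B-high oocyte 7 of the 12 were positive and the median was 0.25, against -0.46 for all genes. PLK1, a kinase of the meiotic divisions, averaged 48.9 CPM with a change of 0.43 ± 0.71, and was at -0.10 ± 0.79 without the SMC1B-high oocyte. The chromosomal passenger genes CDCA8, BIRC5 and AURKB averaged 45.5, 30.9 and 27.2 CPM, with changes of -0.24 ± 1.16, 0.17 ± 0.77 and 1.19 ± 1.12. They kept their sign without the SMC1B-high oocyte, at -0.70 ± 1.26, 0.48 ± 0.86 and 3.10 ± 1.42. In the axis and synaptonemal complex list 6 genes were tested, 0 were called, 1 was positive and the median was -0.62. REC114, a partner of the break machinery, averaged 34.8 CPM with a change of -0.70 ± 0.85, and SYCP2, which pairs with SYCP3, averaged 27.5 CPM with 1.74 ± 1.29. The SYCP2 value rested on gilt 803, since stage 5 had 2.49, 19.2 and 130 CPM in gilts 201, 205 and 803, and it was -0.812 ± 1.197 without the SMC1B-high oocyte, when 0 of the 6 genes were positive. TRIP13, which removes HORMADs from chromosomes, averaged 14.7 CPM with -0.34 ± 1.13, and SYCP1, the transverse filament, 4.52 CPM with -1.71 ± 1.68.

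In the recombination list 16 genes were tested, 0 were called, 11 were positive and the median was 0.47, against -0.27 for all genes. Without the SMC1B-high oocyte 9 were positive and the median was 0.24, against -0.46 for all genes. BRCA2 averaged 35.3 CPM with a change of 0.90 ± 0.75, and BRCA1 10.2 CPM with 1.63 ± 1.25. BRCA1 and BRCA2 both act in the repair of DNA breaks by homologous recombination. In the condensin and SMC5/6 list 9 were tested, 0 were called, 4 were positive and the median was -0.55. Without the SMC1B-high oocyte 3 were positive and the median was -0.46, the same as for all genes. The condensin ATPases SMC4 and SMC2 averaged 47.9 and 36.5 CPM with changes of 0.66 ± 0.82 and 1.05 ± 0.90, and NCAPG and NCAPH 28.7 and 27.8 CPM with -1.11 ± 1.36 and 1.72 ± 1.07. The NCAPH value rested on the SMC1B-high oocyte and was -0.06 ± 1.12 without it. SMC4 was then at 0.05 ± 0.93, SMC2 at 1.59 ± 1.03 and NCAPG at -1.23 ± 1.41. All of these means are TMM-scaled CPM over the 19 sums, and the lists were described by counts and medians, not tested.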

How the data were processed

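Cytoplasmic RNA of 55 pig oocytes was analysed, and the members and wider gene lists were chosen with earlier results of these data known. The authors deposited whole-number counts per Ensembl gene ID without normalization (14857 of 25880 IDs have a symbol). A second table that the authors deposited is named for TPM, but its columns share no sum. Its unit is therefore treated as another, length-scaled value of unknown scale, and 23498 genes of it were read after 1 incomplete line was left out. StringTie 1.2.2, featureCounts, HISAT2 2.1.0 and Trim Galore 0.4.3 are named, with no step assigned to them, per the submitters' processing notes. Which genome build, annotation and strandedness were used is not given in the sources used here. No positions are therefore printed, and reads of a gene and an overlapping antisense gene cannot be told apart. The cDNA had 16 PCR cycles and no molecular identifiers, so intervals and limits cover counting error only.

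CPM used each oocyte's total. Counts were summed per gilt and stage (19 sums, 4 of them of a single oocyte) and the quasi-likelihood test of edgeR 4.0.16 (R 4.3.3) was run two-sided after filterByExpr by stage and TMM scaling, with stage and gilt as terms and Benjamini-Hochberg adjustment over 15637 genes. Changes are log2 ± SE. With gilt as a term, P-values measure the spread of the 19 sums about the fitted stage and gilt values, not the spread between the 4 animals. The spread of the sums includes the noise of sums of few oocytes. The comparison of gilts uses the same spread. DESeq2 1.42.0 and limma 3.58.1 were alternatives. The edgeR script was tested on simulated data, with its pass mark set at a smaller spread than these data have. Its power at the spread of these data is not given here. Granulosa-rich libraries had a larger summed count of the granulosa and cumulus list than of the oocyte list. Gilt is the replicate and the pairing factor, from the labels: deviations from stage means had a mean r of 0.0124, 0.136, 0.141 and 0.133 among sums of gilts 201, 205, 801 and 803, against -0.0937 between gilts. The rule for named genes took all 10 members, up to 4 most abundant genes of each wider list and any gene called, and for each member above 1 CPM the 3 genes most like it. Python 3.11.15 was used for descriptions and figures. A few genes that this rule names are not reported here.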

Additional observations from a re-analysis of the deposited data

Results flagged for a closer look

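Over the 4 gilts of stages 1 to 4, 52 sets of 4 values (TMM-scaled CPM of the 10 genes and the 3 balances) were checked for 1 gilt far from the other 3. In 11 sets 1 gilt stood apart, where chance gives about 1 set in 20 for normal values. CPM is skewed, so that share need not hold here, and sets of the same gilt and stage share libraries. Gilt 205 stood apart in 6 of them. At stage 3 it was highest for SMC1B with 72.7 CPM and for REC8 with 0.736 CPM, and lowest for SMC3 with 30.0 CPM. At stage 2, where it was a single oocyte, it was lowest for SMC1A with 4.95 CPM and highest for RAD21 with 35.5 CPM. At stage 1, also a single oocyte, it was highest for STAG3 with 8.43 CPM. Gilt 803 was highest for RAD21 at stage 4 with 62.7 CPM, HORMAD1 at stage 1 with 9.17 CPM, HORMAD2 at stage 3 with 0.798 CPM (the other 3 gilts at 0), and lowest for the balance of STAG3 over STAG2 at stage 4 with -6.48. Gilt 801 was highest for HORMAD2 at stage 2 with 1.36 CPM, where the other 3 gilts were at 0.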

How the results depend on the processing

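Of the 19 sums 4 are single oocytes, the gilts are only 4, and STAG3 rested on 1 to 3 counts in 9 oocytes. None of the 10 genes was called in any stage comparison under the alternatives run except HORMAD2 with DESeq2, which called 1 member in stage 5 over stage 1 and 1 in stage 5 over stage 4, against 2.33% and 1.38% of all genes. Among gilts DESeq2 and the fit with no TMM factors each called 1 member, STAG2. The backgrounds were 7.61% of the 13211 genes with a DESeq2 adjusted p and 8.49% of all genes. Without the replicate block (gilt as a term) 0 members were called in the stage comparisons, and the log2 change of SMC1B was 1.53. Of 147 log2 changes of stage 5 over stage 1 under alternatives 128 kept their sign, and of 147 slopes 130 did. The cause of the others was not tested.

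Changes of sign in stage 5 over stage 1 were as follows. Without the oocyte highest in SMC1B, an alternative chosen after seeing the data, the values were -0.64 (SMC1B), -1.03 (REC8), -2.28 (STAG3) and -0.56 (STAG2), and the slopes -0.14, -0.13, -0.39 and -0.062. The median change of the loading, acetylation and release list was then -0.43. STAG3 was at -0.028 with limma, -0.054 with each oocyte as a library, -0.82 without granulosa-rich libraries and -0.077 on the other deposited table. With 1 gilt left out it lay between -0.66 and 1.42, and SYCP3 between -1.63 and 0.051, in both cases with the sign changed without gilt 803, where SMC1B (0.32) and REC8 (1.03) kept theirs. SMC1A was at -0.58 with no TMM factors and -0.44 on the other table. STAG2 was at -0.94 with no TMM factors, -0.012 with DESeq2, -0.20 with each oocyte as a library and -0.084 on the other table, and between -0.092 and 0.92 with 1 gilt left out, below 0 without gilts 205, 801 and 803.

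The slope of STAG3 was -0.089 with limma, -0.025 with no replicate block, -0.063 with each oocyte as a library, -0.14 without granulosa-rich libraries and -0.029 on the other table, and between -0.075 (without gilt 803) and 0.21 with 1 gilt left out. That of HORMAD2 was 0.033 with DESeq2 and between -0.38 and 0.050 (without gilt 801) with 1 gilt left out. That of SMC1A was -0.043 with no TMM factors and -0.012 on the other table. That of STAG2 was -0.12 with no TMM factors and between -0.0076 (without gilt 205) and 0.22 with 1 gilt left out, and that of SMC1B was -0.084 with each oocyte as a library.

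The balance of SMC1B over SMC1A was 1.14 without granulosa-rich libraries and 1.42 on the other table, and 0.68 to 0.85 with 1 gilt left out. That of REC8 over RAD21 was -5.16 with 0.1 CPM added and -1.93 with 5 CPM, and -3.97 to -3.03 with 1 gilt left out. It was not run on the other table. That of STAG3 over STAG2 was -2.54 to -0.87 with 1 gilt left out.

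Counts over all genes depended on the tool. DESeq2 called 365 genes in stage 5 over stage 1, 415 in stage 2 over stage 1, 311 in stage 3 over stage 2, 267 in stage 4 over stage 3, 216 in stage 5 over stage 4, 47 among stages and 161 for the trend. With no filter on low counts edgeR called 23, 111, 29, 14 and 4 in the 5 pairs and 216 among stages. Without gilt 803 it called 50 in stage 2 over stage 1 and 45 among stages. Among gilts the 339 became 1006 with DESeq2, 1327 with no TMM factors, 935 with no filter, 873 with each oocyte as a library, 13 without granulosa-rich libraries, 61 on the other table and 27 to 549 with 1 gilt left out.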
